A study of Mus musculus with 15 samples.

Results

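The genes of the photoreceptor ribbon synapse and of synaptic vesicle release were examined in retinas of mice that have cone-like photoreceptors in place of rods and lack a subunit of the cone cyclic nucleotide-gated channel. The list held 44 gene names, and its members were all array probes whose annotated gene symbol was on the list. In all, 71 of the 25697 probes on the array matched, for 40 of the 44 names, and 55 of them (34 genes) were kept because their detection p-value was under 0.01 on at least 5 of the 15 arrays. The RNA of both retinas of 1 animal was hybridised to each Illumina mouse expression beadchip, at postnatal day 30. Nrl-/- mice served as the control (n = 5), CNGA3-/-/Nrl-/- mice are called the Cnga3 double knockout (n = 5) and CNGB3-/-/Nrl-/- mice the Cngb3 double knockout (n = 5). All 15 animals were of a C57bl/6 background strain, all carried the Nrl deletion, and no group with intact Nrl is part of these comparisons.

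Photoreceptors signal in darkness by releasing glutamate without pause, and a plate-like organelle, the synaptic ribbon, holds vesicles close to the release sites for this purpose. Calcium enters the cone terminal through L-type channels, vesicles fuse through SNARE proteins that include syntaxin 3 and are clamped and primed by complexins, and the membrane is taken back by endocytosis. Outside the terminal, pikachurin and dystroglycan tie it to the dendrites of bipolar cells. The cyclic nucleotide-gated channel of the outer segment lies upstream of this machinery, since it sets the membrane voltage that opens the calcium channels. Many vesicle proteins are also made by bipolar, amacrine and ganglion cells, so a whole-retina level is a sum over cell types, and fewer cells of a type and less RNA per cell cannot be told apart in these data.

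Promoter sequences are shown for the 3 genes with the lowest adjusted p among the members called in the Cnga3 double knockout, and for Sh3gl2 because its window holds a cyclic AMP response element. Each is the 250 bases before the annotated start in RefSeq (GRCm38.p6), 5′ to 3′ on the strand of the gene, and capitals mark the letters searched for on both strands: TAATCC (the core site of the photoreceptor factor Crx; GGATTA on the other strand), GGGCGG (a GC box; CCGCCC on the other strand) and TGACGTCA (the cyclic AMP response element).
Dlg4, chr11:70016953-70017202, plus strand: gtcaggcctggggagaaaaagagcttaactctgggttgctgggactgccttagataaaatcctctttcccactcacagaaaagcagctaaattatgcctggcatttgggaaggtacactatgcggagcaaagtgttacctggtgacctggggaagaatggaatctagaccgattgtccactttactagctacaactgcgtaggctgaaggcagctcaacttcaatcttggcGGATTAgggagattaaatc
Rims1, chr1:22806159-22806408, minus strand: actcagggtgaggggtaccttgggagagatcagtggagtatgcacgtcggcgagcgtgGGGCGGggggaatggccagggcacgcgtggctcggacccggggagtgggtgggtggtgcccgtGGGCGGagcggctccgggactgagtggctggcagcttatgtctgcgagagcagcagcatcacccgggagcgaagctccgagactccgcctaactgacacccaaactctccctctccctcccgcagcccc
Egflam, chr15:7398396-7398645, minus strand: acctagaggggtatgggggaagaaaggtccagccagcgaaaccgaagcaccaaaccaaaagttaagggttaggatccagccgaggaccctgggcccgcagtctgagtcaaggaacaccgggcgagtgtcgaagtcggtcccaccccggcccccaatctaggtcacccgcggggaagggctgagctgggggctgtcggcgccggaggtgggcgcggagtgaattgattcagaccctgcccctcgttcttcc
Sh3gl2, chr4:85205206-85205455, plus strand: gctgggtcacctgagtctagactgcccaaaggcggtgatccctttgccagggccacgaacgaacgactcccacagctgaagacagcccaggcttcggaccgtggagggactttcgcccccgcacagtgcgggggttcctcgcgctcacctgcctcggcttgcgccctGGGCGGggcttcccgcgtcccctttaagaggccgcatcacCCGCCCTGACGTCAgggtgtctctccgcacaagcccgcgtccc

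The Dlg4 window holds GGATTA 19 bases before the start, and the Sh3gl2 window holds TGACGTCA 37 bases before it, next to CCGCCC at 43 and beyond it GGGCGG at 83. In the Rims1 window GGGCGG stands at 192 and 129 bases before the start. The Egflam window holds none of the 3 motifs. Of 32851 windows of this length, 6.25% hold the Crx core, 1.55% the cyclic AMP response element and 32.7% a GC box. Of the 34 kept member genes, 29 were matched to promoter windows. The Crx core was in a window of 4 (Dlg4, Mpp4, Sv2b and Syp) and the cyclic AMP response element in that of 1 (Sh3gl2). A GC box was in a window of 17. A gene was counted if any of its windows held the motif, while the shares above are per window, so the 2 are not directly comparable. Dlg4 has 3 windows and Egflam 2, of which the first is shown, and the GC box counted for Dlg4 lies in another. A match describes letters in this stretch and no binding was measured.

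The arrays were alike in brightness, with a median intensity of 136.8 to 171. Control replicate 3 had 10302 probes detected and the other arrays 11646 to 13763. The lowest detected value on that array was 6.01, against 4.99 to 5.52 elsewhere. Its median correlation with its group, 0.9453, was the lowest of all arrays. All 12 cone markers listed were measured, while the Nrl probe was detected on 0 arrays. The Cngb3 probe read 9.03 in the control, 9.04 in the Cnga3 and 6.95 in the Cngb3 double knockout (adjusted p = 0.0108 for the last against the control). Both Cnga3 probes were detected on all 15 arrays, at group means of 8.58, 8.30 and 8.54 and of 7.71, 7.57 and 7.39, and the labels do not say whether they lie in the deleted part of the gene. Control replicates 1 and 3 stood apart from all other arrays in lens genes. The mean log2 level of the 16 lens genes listed, all measured, was 5.23 and 7.70 there and 11.54 to 13.69 elsewhere. Cryaa read 4.28 and 6.60 on these 2 controls. List levels here and below are means over genes, with the brightest kept probe of each gene. The part of lens RNA in the results below was not tested, and the counts without these 2 controls are given beside them. The Cnga3 double knockout stood apart in pigment epithelium genes, except on its replicate 4. Of these genes, 9 of 13 listed were measured (Lrat and Tyr were in the table and not kept). Their level was 9.55 to 10.20 in the controls and 9.40 to 10.26 in the Cngb3 double knockout. In the Cnga3 double knockout it was 10.22 on replicate 4 and 7.81 to 8.83 on the other 4, below every array of the other groups. All 15 kept probes of the list had a lower mean in that group than in the control, with a median log2 fold change of -0.88. The part of pigment epithelium RNA in the results below was not tested.

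In the Cnga3 double knockout the member probes that were called were all higher. They came from the active zone (Rims1), the fusion machinery (Stx3, Syt11, Cplx2), the terminal scaffold and matrix (Dlg4, Egflam) and vesicle recovery (Bin1, Sh3gl2). Stx3, Syt11, Egflam, Bin1 and Sh3gl2 each had a kept probe that was not called and differed past the threshold from a called one. Those probes had log2 fold changes of -0.35, 0.11, -0.31, 0.01 and -0.06, in that order. A remaining probe of Stx3, Syt11 and Bin1 had 0.52, 0.61 and 0.35 and was not called. The proteins of the vesicle itself, the calcium channel and the recycling of SNARE proteins gave no call. Of 55 member probes tested with limma, 9 probes of 8 genes were higher at an adjusted p under 0.05 (Benjamini-Hochberg over all 13077 kept probes) and 0 were lower, or 16.4% of the member probes. Over all kept probes 8.04% were called, 4.61% higher and 3.43% lower. The median log2 fold change was 0.16 over the member probes and -0.01 over all probes, and at an unadjusted p under 0.05 the members split into 17 higher and 5 lower (all probes, 25.8% in either direction). Without control replicate 4 the median over the member probes was 0.07. Without control replicates 1 and 3 together, 13 member probes were called, 12 higher and 1 lower, where the same fit called 10.1% of all probes. The count was 4 when control replicate 2 was left out, 4 without replicate 3 of the Cnga3 double knockout and 5 without its replicate 2. Of the 9 called probes, that of Egflam passed the filter through the double knockouts, since it was detected on 1 control. Among the 48 member probes detected on all 15 arrays 9 were called, or 18.8% beside 9.77% of all such probes. Of these, 8 were among the 9 above. The Egflam probe was not tested there, and Syngr3 passed (adjusted p = 0.0483). With only the 2 groups compared in the fit, 3 of the 9 calls were left, those of Rims1, Dlg4 and Egflam, and 323 of all probes were called in place of 1051.

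In the Cngb3 double knockout 1 member probe, of Rims1, was called higher and 0 were called lower. That is 1.82% of the 55 probes, beside 2.68% of all kept probes (1.44% higher and 1.25% lower). The median log2 fold change was 0.05 over the member probes and -0.0025 over all probes, and 10 were higher and 4 lower at an unadjusted p, which 20.4% of all probes passed. On 1 member probe, of Napb, all 5 arrays lay above every control (2.88% of all probes), and on 2, of Bin1 and Syngr1, all 5 lay below (3.82%). Without control replicates 1 and 3 together, 10 member probes were called, 9 higher and 1 lower, in this comparison, where the same fit called 6.49% of all probes. Both comparisons use the same 5 control arrays, so their values for a probe share the error of the controls and are given side by side without a measure of likeness.

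Markers of retinal cell types changed in the same comparisons. The Cnga3 double knockout gave calls on 5 of 16 cone marker probes, beside 8.04% of all kept probes. Log2 fold changes were -2.18 and -2.26 for the probes of Arr3 (cone arrestin), -0.59 for Guca1a and 0.90 for Rcvrn (recoverin). The Opn1sw probe ILMN_2893131 had -1.05 (adjusted p = 0.007), while the brighter ILMN_2593541 had 0.19 (adjusted p = 0.547). The Cngb3 double knockout gave 4 calls among the 16, 1 higher and 3 lower, beside 2.68% of all kept probes. The mean log2 level of the cone list ran from 12.93 to 13.13 in the controls, 12.54 to 12.95 in the Cnga3 and 12.74 to 12.98 in the Cngb3 double knockout. Of the 6 kept rod marker probes, 1 was called higher and 1 lower in the Cnga3 double knockout. Gnat1 rose by 0.67 (adjusted p = 0.00785), and Pde6b had a log2 fold change of -2.81. Higher calls there were 2 of 15 bipolar probes (Cabp5 and Scgn) and 2 of 18 amacrine probes (Tfap2b and Chat). Also higher were 1 of 4 horizontal and 2 of 10 Mueller glia probes (Aqp4 and Dkk3). Lower calls were 1 of 9 ganglion and 2 of 15 pigment epithelium probes. Over all kept probes 4.61% were called higher and 3.43% lower in that comparison. The Mueller glia pair was also called in the Cngb3 double knockout, and of the bipolar and amacrine probes 0 were. At an unadjusted p, 5 of the 15 bipolar probes were lower there and 0 higher (20.4% of all probes passed). The bipolar list had 11 of 13 genes measured. Its mean log2 level was 9.98 to 10.27 in the controls and 10.04 to 10.21 in the Cnga3 double knockout. In the Cngb3 double knockout it was 9.78 to 9.94, below every control. Between the double knockouts 1 bipolar probe was called, higher in the Cnga3 double knockout. Between the double knockouts, 5 of 15 pigment epithelium probes were called lower in the Cnga3 double knockout (all kept probes, 0.222% lower). The part of these cell types in the members' values was not tested.

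**Figure D1:**
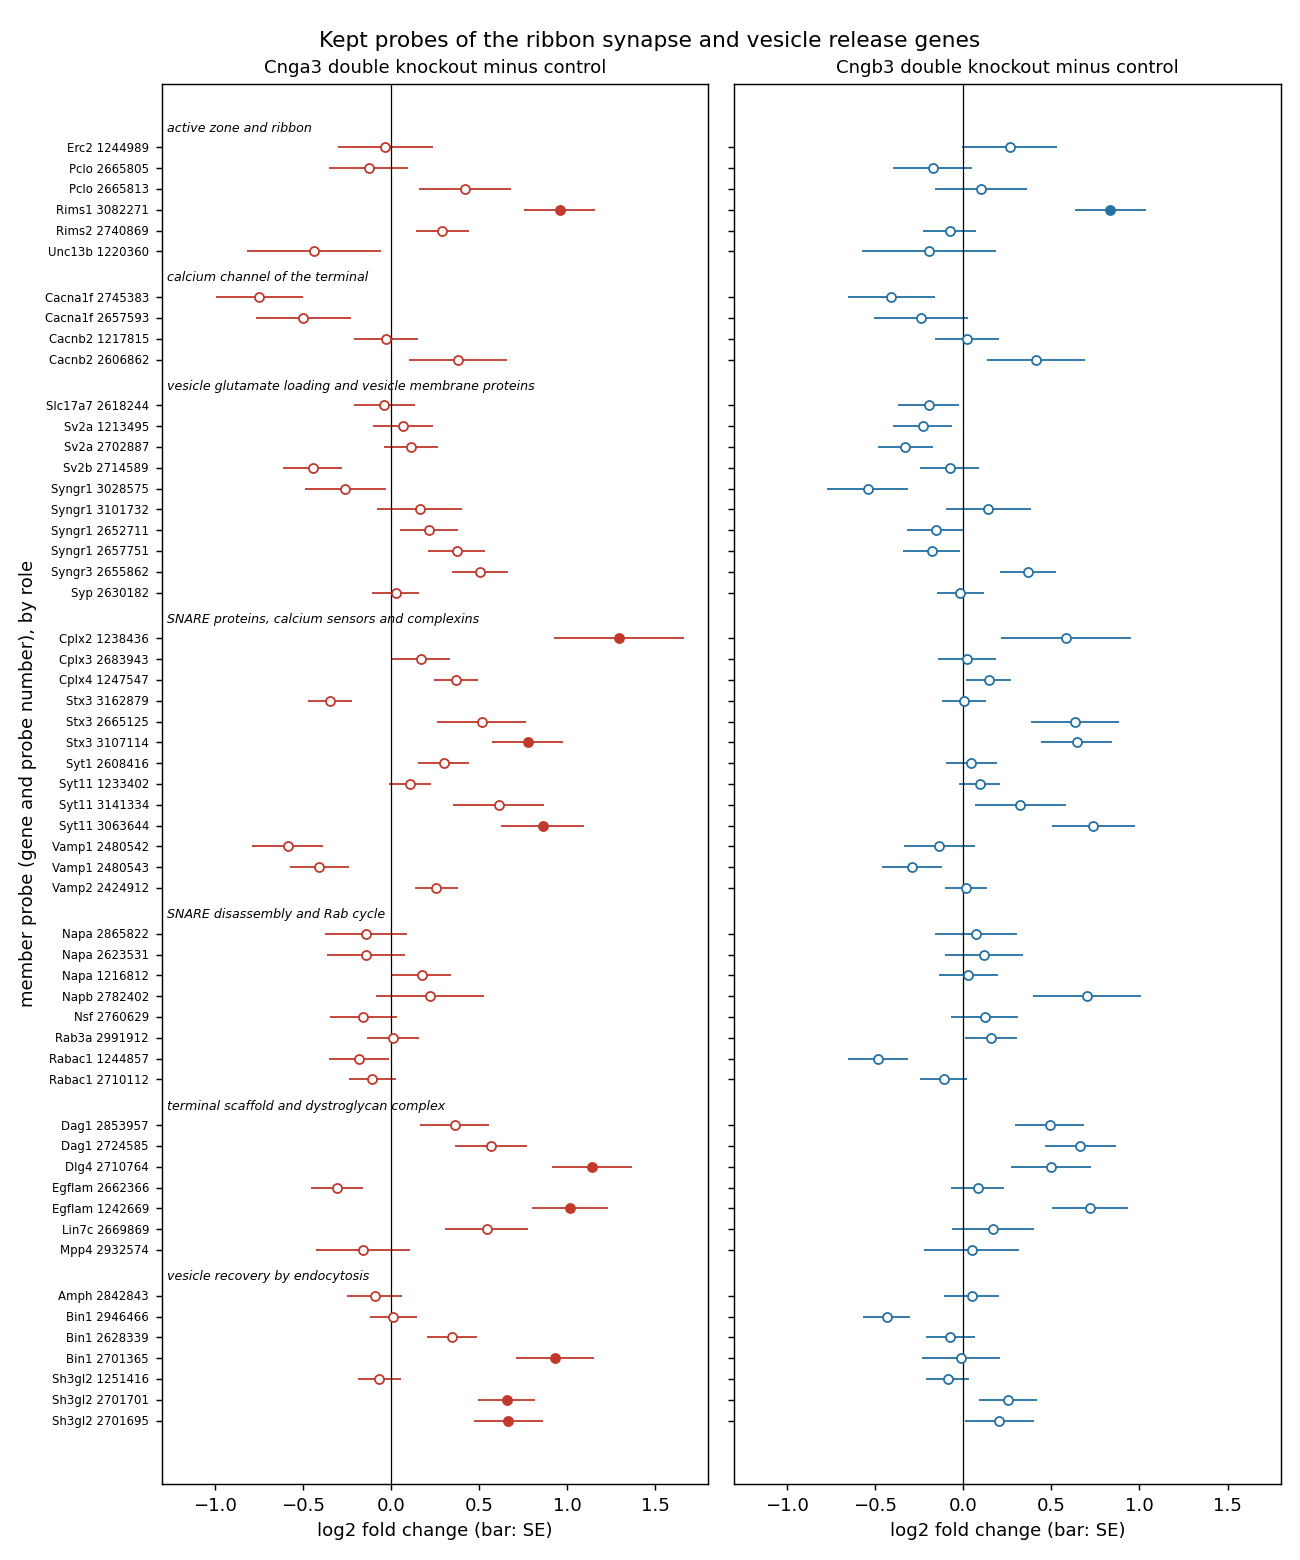
Log2 fold change against the Nrl-/- control (x axis, bars are the standard error) of the 55 kept member probes, grouped by role, in the Cnga3 (left) and the Cngb3 (right) double knockout, 5 arrays per group. Filled points were called at an adjusted p under 0.05: 9 probes in the left panel, all to the right of 0, and the Rims1 probe in the right panel.

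At the active zone, Rims1, a scaffold that couples vesicles to calcium channels, rose in both double knockouts, while its relative Rims2 and the other active zone genes gave no call. In each list of array values here and below, replicates 1 to 5 follow in order, on the normalized log2 intensity scale. Rims1 (ILMN_3082271) read 7.08, 6.25, 6.75, 6.25 and 6.41 in the controls, 7.49, 7.79, 7.52, 6.94 and 7.79 in the Cnga3 double knockout and 7.49, 7.74, 7.47, 7.24 and 6.97 in the Cngb3 double knockout. Of the Cnga3 double knockout arrays, all but replicate 4 lay above every control, and so did all Cngb3 double knockout arrays but replicate 5. The group means were 6.55 ± 0.36, 7.51 ± 0.35 and 7.38 ± 0.29 (SD, n = 5 each), a 1.94-fold rise in the Cnga3 double knockout (a log2 difference of 0.96 with SE 0.20 and adjusted p = 0.01) and a 1.78-fold rise in the Cngb3 double knockout (0.84, adjusted p = 0.0344). The first call held without any 1 array (adjusted p of at most 0.0332). In the authors' processed values the log2 differences were 0.50 and 0.43 (adjusted p = 0.0118 and 0.0467). The second call ended with no filter on dim probes or with only the 2 groups compared (adjusted p = 0.051 and 0.0515). It also ended without control replicate 2, 4 or 5 and without Cngb3 double knockout replicate 1, 2, 3 or 4 (adjusted p of up to 0.0921). The other Rims1 probe was detected on 0 of 15 arrays.

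Rims2 had a log2 fold change of 0.29 in the Cnga3 and -0.08 in the Cngb3 double knockout (adjusted p = 0.234 and 0.817). Erc2, a partner of bassoon at the ribbon, had -0.03 and 0.26 (adjusted p = 0.952 and 0.62). Unc13b, the vesicle priming factor Munc13-2, had -0.43 and -0.19, with a wide control range of 9.80 to 12.22, in which control replicate 3 was the lowest. The 95% interval of its first value, -1.24 to 0.37, leaves room for a change of either sign. Both probes of Pclo, the giant scaffold piccolo, lay near the limit of detection, with log2 fold changes of -0.13 and 0.42 in the Cnga3 double knockout. Bsn (bassoon) and the 4 probes of Erc1 were not kept, and Ctbp2, whose product includes the ribbon protein RIBEYE, had no probe by that symbol in the annotation used.

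The calcium channel of the terminal gave no call in any of the 3 comparisons made with limma, with 1 of its 4 probes lower at an unadjusted p in the Cnga3 double knockout and 0 in the Cngb3 double knockout. Cacna1f encodes the pore-forming subunit of the photoreceptor channel. Its probe ILMN_2745383 read 8.77, 9.04, 9.11, 9.14 and 9.35 in the controls, 8.51, 9.08, 8.76, 7.29 and 8.04 in the Cnga3 double knockout and 8.79, 8.65, 8.74, 8.46 and 8.72 in the Cngb3 double knockout. The means were 9.08 ± 0.21, 8.33 ± 0.70 and 8.67 ± 0.13, with a log2 fold change in the Cnga3 double knockout of -0.75 (SE 0.25, adjusted p = 0.069) and of -0.41 (adjusted p = 0.364) in the Cngb3 double knockout. Replicates 4 and 5 of the Cnga3 double knockout lay below all other arrays, and the groups overlapped. Leaving out replicate 2 of that group brought the probe past the threshold, at -0.93 (adjusted p = 0.0337).

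The other Cacna1f probe, ILMN_2657593, read 7.35, 7.22, 7.35, 6.78 and 7.30 in the controls, 7.23, 7.03, 7.09, 5.51 and 6.64 in the Cnga3 double knockout and 6.70, 6.96, 7.39, 6.56 and 7.19 in the Cngb3 double knockout. It had a log2 fold change of -0.50 in the Cnga3 and -0.24 in the Cngb3 double knockout (adjusted p = 0.252 and 0.65), and replicate 4 of the Cnga3 double knockout was again the lowest array. Cacnb2, the auxiliary beta subunit, gave -0.03 and 0.02 with probe ILMN_1217815, with a 95% interval of -0.41 to 0.36 for the first, and 0.38 and 0.41 with ILMN_2606862, which was detected on 9 arrays. Cacna2d4, the alpha2-delta subunit of this channel, had no probe by that symbol in the annotation used.

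Genes of vesicle filling and of the vesicle membrane gave 0 calls among 10 probes in both comparisons with the control, with 3 at an unadjusted p in each. Syp, the vesicle protein synaptophysin, had a log2 fold change of 0.03 in the Cnga3 and -0.02 in the Cngb3 double knockout, with 95% intervals of -0.25 to 0.31 and -0.30 to 0.26. Slc17a7, the vesicular glutamate transporter of photoreceptors, had -0.04 and -0.20 (intervals of -0.40 to 0.33 and -0.56 to 0.17). Sv2b, a vesicle glycoprotein of photoreceptor terminals, was lower on all 5 Cnga3 double knockout arrays than on any control, at 12.23 ± 0.41 against 12.68 ± 0.13. Its log2 fold change of -0.44 did not pass the test (adjusted p = 0.108), and 3.48% of all probes were separated in that direction (6.74% in either).

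Syngr3, a synaptogyrin of the vesicle membrane, read 10.48, 10.18, 10.73, 9.89 and 10.09 in the controls, 11.01, 10.85, 11.03, 10.46 and 10.54 in the Cnga3 double knockout and 10.65, 10.70, 10.66, 10.56 and 10.64 in the Cngb3 double knockout. Replicates 4 and 5 of the Cnga3 double knockout lay within the control range and the other replicates above it. In the Cnga3 double knockout the log2 fold change was 0.51 (SE 0.16, adjusted p = 0.0598) and 0.37 (adjusted p = 0.207) in the Cngb3 double knockout. In the Cnga3 double knockout the probe passed the threshold with the authors' own normalization (0.47, adjusted p = 0.039) and without control replicates 1 and 3 together (0.73, adjusted p = 0.00735). Without those controls it passed in the Cngb3 double knockout as well (0.59, adjusted p = 0.0293).

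Syngr1, another synaptogyrin, had 4 kept probes. Its probe ILMN_2657751 read 8.15, 8.49, 8.82, 8.29 and 8.50 in the controls, 8.92, 9.24, 8.98, 8.53 and 8.44 in the Cnga3 double knockout and 8.11, 8.31, 8.31, 8.19 and 8.43 in the Cngb3 double knockout. That probe did not separate either double knockout from the control (log2 fold changes 0.37 and -0.18), yet every Cnga3 double knockout array lay above every Cngb3 double knockout array, by a mean of 0.55 (adjusted p = 0.141). The other 3 Syngr1 probes had values from -0.26 to 0.22 in the Cnga3 double knockout. Both probes of Sv2a, a vesicle protein of most synapses, had 0.11 and 0.07 in that comparison and -0.33 and -0.23 in the Cngb3 double knockout (adjusted p = 0.242 and 0.458).

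Among SNARE proteins, calcium sensors and complexins, 3 of 13 probes rose in the Cnga3 double knockout, 0 fell, and 0 were called in the Cngb3 double knockout (3 at an unadjusted p). Stx3 encodes syntaxin 3, the plasma membrane SNARE of ribbon synapses. Its probe ILMN_3107114 read 9.56, 8.85, 9.29, 8.45 and 9.13 in the controls, 10.15, 10.09, 9.99, 9.31 and 9.63 in the Cnga3 double knockout and 9.74, 9.86, 9.89, 9.53 and 9.48 in the Cngb3 double knockout. Only replicate 4 of the Cnga3 double knockout fell within the control range. It rose 1.71-fold in the Cnga3 double knockout, to 9.83 ± 0.35 from 9.06 ± 0.42 (on the log2 scale 0.78, with SE 0.20 and adjusted p = 0.0275), and had 0.65 (adjusted p = 0.0958) in the Cngb3 double knockout. The call ended without control replicate 2 or 4 and without replicate 1, 2 or 3 of the Cnga3 double knockout (adjusted p of up to 0.0699). Without control replicates 1 and 3 together the Cngb3 double knockout value was 0.89 (adjusted p = 0.0187).

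The Stx3 probe ILMN_2665125 read 7.83, 7.69, 7.97, 7.11 and 7.33 in the controls, 8.29, 8.58, 8.76, 7.53 and 7.35 in the Cnga3 double knockout and 8.38, 8.43, 8.28, 8.18 and 7.85 in the Cngb3 double knockout. Its log2 fold changes were 0.52 and 0.63 (adjusted p = 0.205 and 0.166). Probe ILMN_3162879, which the annotation assigns to another transcript of the gene than the first 2, read 6.80, 7.29, 7.24, 7.16 and 7.02 in the controls, 6.69, 6.79, 7.02, 6.77 and 6.52 in the Cnga3 double knockout and 7.14, 7.13, 7.14, 7.19 and 6.93 in the Cngb3 double knockout. That probe had -0.35 in the Cnga3 double knockout (adjusted p = 0.0941), with all but replicate 3 below every control, and 0.00 in the Cngb3 double knockout. The difference between probes was itself past the threshold: relative to ILMN_3162879, in the Cnga3 double knockout the first probe moved up by 1.12 (SE 0.23, adjusted p = 0.00763) and the second by 0.86 (SE 0.23, adjusted p = 0.0273). In the Cngb3 double knockout these differences were 0.64 and 0.63 (adjusted p = 0.139 for each).

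Syt11, a synaptotagmin that does not bind calcium and acts in membrane trafficking, had 3 kept probes. ILMN_3063644 read 6.62, 6.67, 7.01, 5.51 and 6.15 in the controls, 7.41, 7.27, 7.54, 6.86 and 7.18 in the Cnga3 double knockout and 7.04, 7.38, 6.71, 7.48 and 7.04 in the Cngb3 double knockout. Replicate 4 of the Cnga3 double knockout was the lowest of its group and the only one within the control range. The rise was 1.82-fold (on the log2 scale 0.86, with SE 0.24 and adjusted p = 0.0345), and the Cngb3 double knockout had 0.74 (adjusted p = 0.0999). This call ended without control replicate 4 or 5 and without any replicate of the Cnga3 double knockout other than replicate 4 (adjusted p of up to 0.0734), and the value was 0.41 in the authors' processed values. The Cngb3 double knockout value without control replicates 1 and 3 was 1.02 (adjusted p = 0.0213).

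The Syt11 probe ILMN_1233402 read 12.91, 12.74, 12.89, 12.67 and 12.45 in the controls, 12.89, 12.92, 12.91, 12.58 and 12.89 in the Cnga3 double knockout and 12.71, 12.90, 12.88, 12.79 and 12.84 in the Cngb3 double knockout. Its log2 fold changes of 0.11 and 0.09 did not pass (adjusted p = 0.591 and 0.696), and it moved less than ILMN_3063644 in the Cnga3 double knockout by 0.75 (SE 0.21, adjusted p = 0.0329). That difference ended in 7 of the 15 fits that left out 1 array (adjusted p of up to 0.0731), and it was smaller in the authors' processed values (a log2 difference of -0.30, adjusted p = 0.064). Probe ILMN_3141334, detected on 9 arrays, read 5.45, 4.74, 4.89, 5.95 and 4.59 in the controls, 5.94, 5.62, 6.39, 5.03 and 5.71 in the Cnga3 double knockout and 5.76, 5.53, 5.35, 5.44 and 5.17 in the Cngb3 double knockout. It had 0.61 (adjusted p = 0.145) in the Cnga3 double knockout, where the groups overlapped widely.

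Cplx2, a complexin found mainly at conventional synapses of the inner retina, had the largest log2 fold change of the member probes and also the widest controls of the called ones. ILMN_1238436 read 8.49, 6.98, 9.33, 6.69 and 8.22 in the controls, 9.03, 9.65, 9.37, 9.07 and 9.06 in the Cnga3 double knockout and 8.35, 8.87, 8.70, 8.27 and 8.44 in the Cngb3 double knockout. Control replicate 3 was at the level of the Cnga3 double knockout, and control replicates 2 and 4 were more than 2 units below that level. The means were 7.94 ± 1.10, 9.24 ± 0.27 and 8.52 ± 0.25, with a log2 fold change in the Cnga3 double knockout of 1.29 (SE 0.37, adjusted p = 0.0407) and of 0.58 (adjusted p = 0.388) in the Cngb3 double knockout. The call ended in 12 of the 15 fits that left out 1 array, with adjusted p-values reaching 0.102, and it held only without control replicate 1, without control replicate 3 or without Cngb3 double knockout replicate 2. Without control replicates 1 and 3 together the Cngb3 double knockout value was 1.23 (adjusted p = 0.0177). Of the list of 12 amacrine markers, 9 were measured (Gad2 and Th were in the table and not kept). Mean log2 levels were 10.15 to 10.60 in the controls, 10.18 to 10.70 in the Cnga3 and 10.55 to 10.61 in the Cngb3 double knockout. The 2 lowest controls in that list were replicates 4 and 5. Of the 18 kept probes of the list, 7 were higher and 1 lower at an unadjusted p in the Cnga3 double knockout. Their median log2 fold change was 0.21. In the Cngb3 double knockout 6 were higher and 0 lower, with a median of 0.17. Over all probes 25.8% and 20.4% passed an unadjusted p in the 2 comparisons, in either direction. The list's part in the Cplx2 values was not tested.

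The complexins of ribbon synapses gave no call. Cplx4 separated the Cnga3 double knockout from the control on all arrays, at 12.80 ± 0.07 against 12.44 ± 0.26, but its log2 fold change of 0.37 did not pass (adjusted p = 0.0799), and 3.27% of all probes were separated upward in this way. Cplx3 had 0.17 (adjusted p = 0.544). Vamp2, the vesicle SNARE of most synapses, had 0.26 and Syt1, the fast calcium sensor of conventional synapses, 0.30 (adjusted p = 0.191 and 0.202). Both kept probes of Vamp1, a vesicle SNARE, had negative values, of -0.41 and -0.59 (adjusted p = 0.138 and 0.0801). Its other 2 probes, which name another transcript, were not kept, nor were the probes of Snap25 and Syt2.

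The genes of SNARE disassembly and the Rab cycle gave 0 calls among 8 probes in either comparison with the control, with 0 and 2 at an unadjusted p. Nsf, the ATPase that takes SNARE complexes apart, had log2 fold changes of -0.16 and 0.12 and Rab3a, a vesicle GTPase that binds Rims1, had 0.01 and 0.16. The 3 probes of Napa, the cofactor of Nsf, lay between -0.14 and 0.17 in the Cnga3 double knockout. Napb, the neuronal form of that cofactor, read 11, 11.11, 9.97, 10.93 and 11.36 in the controls, 11.45, 11.40, 11.50, 9.71 and 11.41 in the Cnga3 double knockout and 11.56, 11.68, 11.59, 11.52 and 11.53 in the Cngb3 double knockout. All 5 Cngb3 double knockout arrays lay above every control, the nearest values being 11.52 and 11.36, yet the log2 fold change of 0.70 did not pass (SE 0.30, adjusted p = 0.205). Replicate 4 of the Cnga3 double knockout, at 9.71, lay far below the rest of its group. Without that array in the shared fit the Cngb3 double knockout value was still 0.70 and passed (adjusted p = 0.047). Rabac1, which binds prenylated Rab proteins, read 11.43, 11.32, 11.82, 11.43 and 12.09 in the controls, 11.12, 11.38, 11.54, 11.83 and 11.31 in the Cnga3 double knockout and 10.94, 11, 11.37, 11.04 and 11.32 in the Cngb3 double knockout with probe ILMN_1244857. Its log2 fold changes were -0.18 and -0.48 (adjusted p = 0.525 and 0.125), and its other probe had -0.10 and -0.11.

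In the scaffold and dystroglycan group, 2 of 7 probes rose in the Cnga3 double knockout, 0 fell, and 0 were called in the Cngb3 double knockout (4 at an unadjusted p). Dlg4 encodes PSD-95, which in photoreceptors lines the presynaptic membrane of the terminal. ILMN_2710764 read 8.94, 7.89, 9.32, 7.99 and 8.62 in the controls, 9.40, 9.82, 9.87, 9.57 and 9.79 in the Cnga3 double knockout and 8.88, 8.97, 9.28, 9.22 and 8.89 in the Cngb3 double knockout. All 5 Cnga3 double knockout arrays lay above every control and every Cngb3 double knockout array. The level rose 2.21-fold, to 9.69 ± 0.20 from 8.55 ± 0.61 (on the log2 scale 1.14, with SE 0.23 and adjusted p = 0.00787), and the call held without any 1 array (adjusted p of at most 0.0233). In the Cngb3 double knockout the log2 fold change was 0.50 (adjusted p = 0.225), and the difference between the double knockouts, 0.64, did not pass either (SE 0.23, adjusted p = 0.212). With control replicates 1 and 3 left out, the Cngb3 double knockout value was 0.88 (adjusted p = 0.00973).

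Egflam encodes pikachurin, the matrix protein that binds dystroglycan at the photoreceptor terminal. Its probe ILMN_1242669 read 5.85, 4.65, 5.45, 4.62 and 5.15 in the controls, 6.19, 6.18, 6.56, 5.69 and 6.18 in the Cnga3 double knockout and 5.79, 6.12, 5.78, 5.95 and 5.70 in the Cngb3 double knockout. It was detected on 1 of 5 control arrays and on all 10 others, and replicate 4 of the Cnga3 double knockout lay below the highest control. The measured means were 5.14 ± 0.53, 6.16 ± 0.31 and 5.86 ± 0.17, with log2 fold changes of 1.02 (SE 0.22, adjusted p = 0.0106) and 0.72 (adjusted p = 0.085), and the first passed without any 1 array (adjusted p of at most 0.0335). Because all but 1 control read as not detected, the probe was kept through the double knockouts and the size of the difference is uncertain: it was 0.59 with an offset of 50 and 0.32 in the authors' processed values and passed the test with both. Leaving out control replicates 1 and 3 gave a Cngb3 double knockout value of 1.06 (adjusted p = 0.0041). Probe ILMN_2662366, assigned to the same transcript, read 5.61, 5.59, 5.72, 5.63 and 5.68 in the controls, 5.44, 5.58, 4.98, 5.03 and 5.66 in the Cnga3 double knockout and 5.77, 5.44, 6.04, 5.74 and 5.64 in the Cngb3 double knockout. That probe had -0.31 and 0.08 (adjusted p = 0.205 and 0.799). Relative to it the first probe moved up by 1.32 in the Cnga3 (SE 0.25, adjusted p = 0.0048) and by 0.64 in the Cngb3 double knockout (adjusted p = 0.169).

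Dag1, dystroglycan itself, had 2 kept probes, and neither passed the test in either double knockout. ILMN_2724585 had log2 fold changes of 0.57 and 0.67 (adjusted p = 0.0907 and 0.0907), with control values from 9.18 to 10.35 and Cnga3 double knockout values from 10.21 to 10.42. ILMN_2853957 had 0.36 and 0.49 (adjusted p = 0.253 and 0.167). Lin7c, an adaptor of scaffold complexes that the list also holds under its older name Veli3, had 0.54 and 0.17 (adjusted p = 0.153 and 0.73). Mpp4, the scaffold partner of PSD-95 in photoreceptors, had -0.16 and 0.05, with replicate SDs of 0.22 in the control and 0.78 in the Cnga3 double knockout. Both probes of Dmd (dystrophin) were not kept, and Lin7a had no probe by that symbol in the annotation used.

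Among the genes of vesicle recovery, 3 of 7 probes rose in the Cnga3 double knockout and 0 fell, while 0 were called in the Cngb3 double knockout (1 at an unadjusted p). Bin1 encodes amphiphysin 2, which binds curved membrane. Its probe ILMN_2701365 read 7.35, 6.71, 7.23, 6.77 and 8.06 in the controls, 7.64, 8.30, 8.52, 8.20 and 8.11 in the Cnga3 double knockout and 7.34, 7.25, 6.91, 7.21 and 7.32 in the Cngb3 double knockout. All Cnga3 double knockout arrays but replicate 1 lay above every control, and all 5 lay above every Cngb3 double knockout array. The rise was 1.91-fold in the Cnga3 double knockout (on the log2 scale 0.93, with SE 0.22 and adjusted p = 0.0185), against -0.01 (adjusted p = 0.979) in the Cngb3 double knockout. The call ended without control replicate 2 (adjusted p = 0.053), and the value was 0.58 in the authors' processed values. Probe ILMN_2946466 read 11.42, 11.57, 11.88, 11.56 and 11.96 in the controls, 11.49, 11.96, 11.86, 11.49 and 11.65 in the Cnga3 double knockout and 11.21, 11.22, 11.29, 11.24 and 11.25 in the Cngb3 double knockout, with log2 fold changes of 0.01 and -0.43 (adjusted p = 0.959 and 0.09). The 5 Cngb3 double knockout arrays ran from 11.21 to 11.29, below every control. Probe ILMN_2628339 read 6.11, 6.34, 6.43, 6.60 and 6.32 in the controls, 6.53, 6.94, 6.72, 6.61 and 6.73 in the Cnga3 double knockout and 6.35, 6.36, 5.85, 6.35 and 6.53 in the Cngb3 double knockout, with 0.35 and -0.07 (adjusted p = 0.131 and 0.812). In the Cnga3 double knockout ILMN_2946466 moved less than ILMN_2701365 by 0.92 (SE 0.19, adjusted p = 0.00763).

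Sh3gl2 encodes endophilin A1, which helps to strip clathrin from new vesicles. Its probe ILMN_2701701 read 8.38, 7.78, 8.31, 7.54 and 7.98 in the controls, 8.44, 8.86, 8.84, 8.70 and 8.43 in the Cnga3 double knockout and 8.29, 8.46, 8.33, 8.17 and 8.0 in the Cngb3 double knockout. All 5 Cnga3 double knockout arrays lay above every control, the nearest pair being 8.43 and 8.38. The rise was 1.58-fold (on the log2 scale 0.66, with SE 0.16 and adjusted p = 0.0235), and the Cngb3 double knockout had 0.25 (adjusted p = 0.397). Probe ILMN_2701695 read 9.06, 8.25, 8.89, 8.11 and 8.79 in the controls, 9.15, 9.48, 9.69, 9.14 and 8.96 in the Cnga3 double knockout and 8.91, 8.96, 9.05, 8.47 and 8.73 in the Cngb3 double knockout, and rose by 0.67 (SE 0.19, adjusted p = 0.0449), with 0.21 in the Cngb3 double knockout. The first call was lost when control replicate 2 was left out, or replicate 2 or 3 of the Cnga3 double knockout (adjusted p of up to 0.063), and the second in 11 of the 15 fits that left out 1 array (up to 0.109), and it held only when control replicate 1 or 3 or replicate 4 of either double knockout was left out. Probe ILMN_1251416 read 13.47, 13.37, 13.34, 13.27 and 13.16 in the controls, 13.31, 13.45, 13.33, 12.84 and 13.34 in the Cnga3 double knockout and 13.17, 13.19, 13.26, 13.19 and 13.35 in the Cngb3 double knockout. It had -0.06 and -0.09 (adjusted p = 0.77 and 0.73), and moved less than the other probes by 0.72 (adjusted p = 0.0212) and 0.73 (adjusted p = 0.0298) in the Cnga3 double knockout. Amph, amphiphysin 1, had -0.09 with its kept probe, and the 2 probes of Dnm1 (dynamin 1) were detected on 4 arrays each and not kept.

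**Figure D2:**
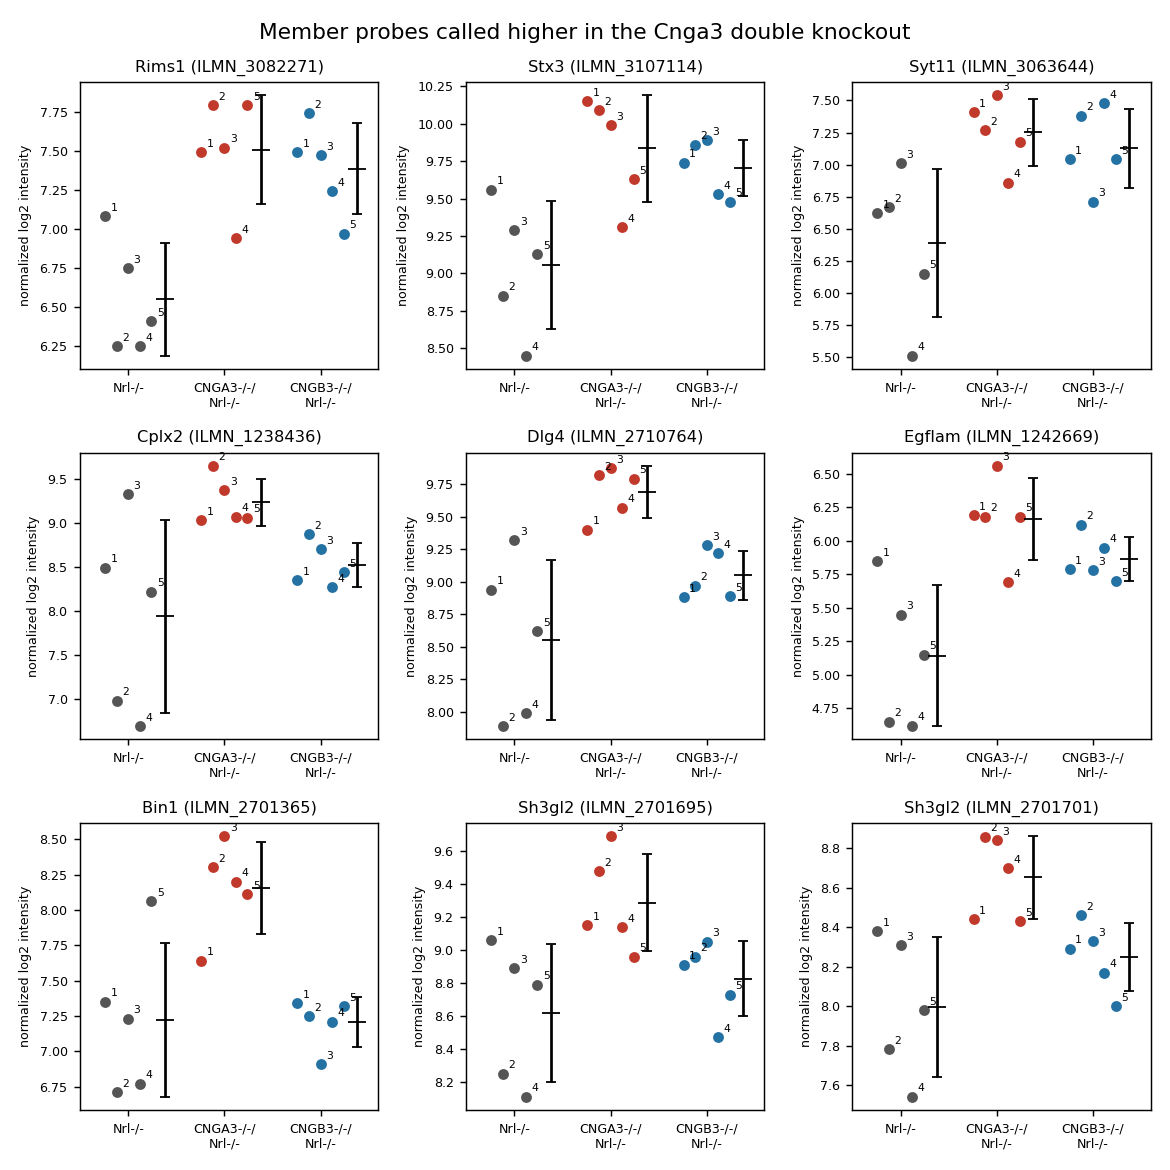
Normalized log2 intensity (y axis, scaled per panel and not starting at 0) of the 9 member probes called higher in the Cnga3 double knockout, on each array of the 3 groups, with replicate numbers beside the points and the mean ± SD of 5 arrays as bars. In 2 of the 9 panels, Dlg4 and Sh3gl2 ILMN_2701701, all 5 Cnga3 double knockout arrays lie above every control, and control replicates 1 and 3 are the 2 highest controls in 7 of 9.

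Probes of the same gene differed past the threshold in 5 of the 14 member genes with more than 1 kept probe, and the calls were unequal in how they held. Over the 29 pairs of probes in those 14 genes, 7 pairs differed in the Cnga3 double knockout at an adjusted p under 0.05 (limma on the difference of the 2 log2 values, Benjamini-Hochberg over the 4297 probe pairs of all genes), beside 9.84% of all pairs. In the Cngb3 double knockout 0 of 29 did, beside 2.86% of all pairs. The pairs of Bin1 and Egflam and the pair of Stx3 ILMN_3107114 held without any 1 array. The other pairs ended in some of the 15 fits that left out 1 array: the other Stx3 pair in 6, the Sh3gl2 pairs in 5 and 2, and the Syt11 pair in 7. With no filter on dim probes the Syt11 pair ended as well (adjusted p = 0.0525), and with the replicate number as a block (adjusted p = 0.0558). The authors' processed values gave smaller differences, of 0.40 for Egflam. The Egflam probe ILMN_1242669 was detected on 1 control and kept through the double knockouts, so the size of its pair's difference is uncertain. The test was added after the values were seen. That the probes of Stx3 and Egflam disagree was known before it, so for these genes it is no independent support. In Stx3 the probe that moved apart names another transcript than the others, while in Egflam, Bin1, Sh3gl2 and Syt11 all probes are assigned to 1 transcript. No source used here says what part of each transcript a probe covers.

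**Figure D3:**
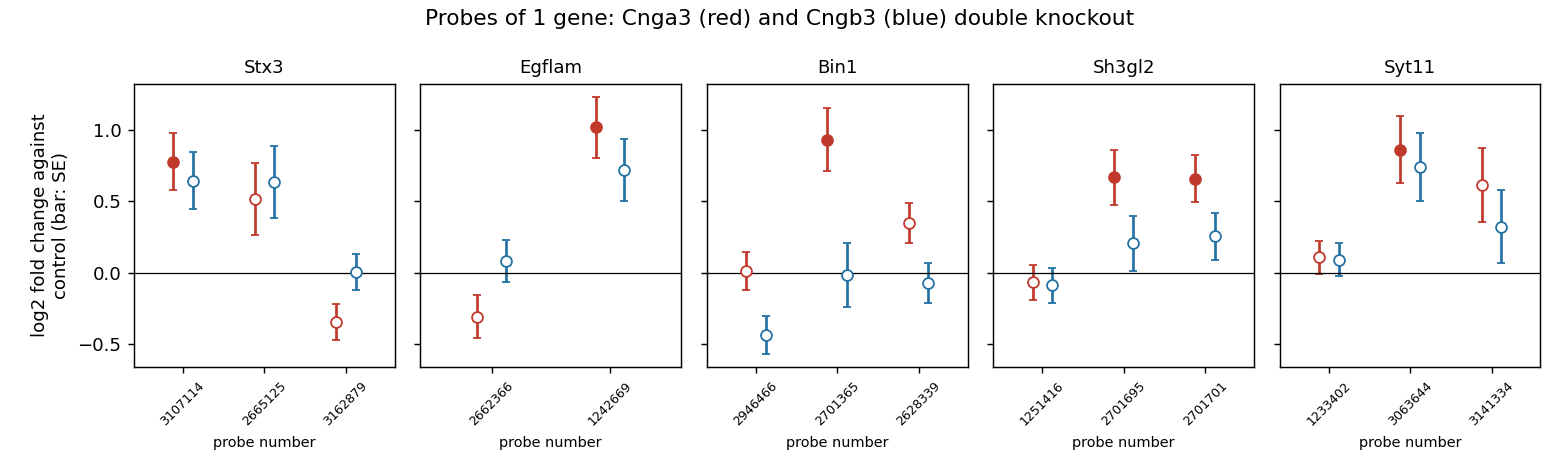
Log2 fold change against the Nrl-/- control (y axis, bars are the standard error) of every kept probe (x axis, probe numbers) of the 5 genes whose probes differed, in the Cnga3 (red) and the Cngb3 (blue) double knockout, 5 arrays per group. Filled points were called at an adjusted p under 0.05: in each gene at least 1 probe of the Cnga3 double knockout is filled and another lies between -0.35 and 0.11.

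The 2 double knockouts were also compared with each other. In limma 0 of 55 member probes passed an adjusted p under 0.05, 14 passed at an unadjusted p (10 higher and 4 lower in the Cnga3 double knockout), and 0.405% of all kept probes were called. At an unadjusted p 14.5% of all probes passed. The member probe with the lowest adjusted p in this comparison was Bin1 ILMN_2701365, at 0.95 (SE 0.22, adjusted p = 0.0775, 95% interval 0.48 to 1.41). That probe passed with median centring (limma adjusted p = 0.0191) and with only the 2 groups compared (0.0221). It also passed without control replicate 5 (0.0287) or without replicate 1 of the Cnga3 double knockout (0.0349). On 7 member probes every Cnga3 double knockout array lay above every Cngb3 double knockout array: the 3 probes of Bin1, Cplx2, Cplx4, Dlg4 and Syngr1 ILMN_2657751. On 1, Napb, every such array lay below. Over all probes 2.53% were separated upward and 2.4% downward, or 4.93% in either direction. Of the 9 probes called in the Cnga3 double knockout, 0 were called between the double knockouts. The 95% intervals are not adjusted for the number of probes. Besides that of Bin1 they excluded 0 for Dlg4 (0.16 to 1.12) and for Sh3gl2 ILMN_2701695 (0.05 to 0.87) and ILMN_2701701 (0.06 to 0.75). They included 0 for the other called probes. For Rims1 the difference was 0.12 with a 95% interval of -0.30 to 0.54, and for Stx3 ILMN_3107114 0.13 with -0.29 to 0.56.

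The SD among the 5 controls was 0.35 to 1.10 over the 9 called probes. Control replicates 2 and 4 were the 2 lowest controls in 8 of the 9, and replicates 1 and 3, which lacked lens signal, were the 2 highest in 7. At least 4 of 5 Cnga3 double knockout arrays lay above every control in 8 of the 9 called probes, and 2 of 5 in Cplx2. Replicate 4 of the Cnga3 double knockout was the lowest of its group on 35 of all 55 kept member probes and on 4 of the 9 called. Leaving it out gave 11 calls, 10 higher and 1 lower, of which 8 were among the 9, and the same fit called 9.34% of all probes. The median SD over the kept member probes was 0.33 in the control, 0.31 in the Cnga3 and 0.17 in the Cngb3 double knockout.

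**Figure D4:**
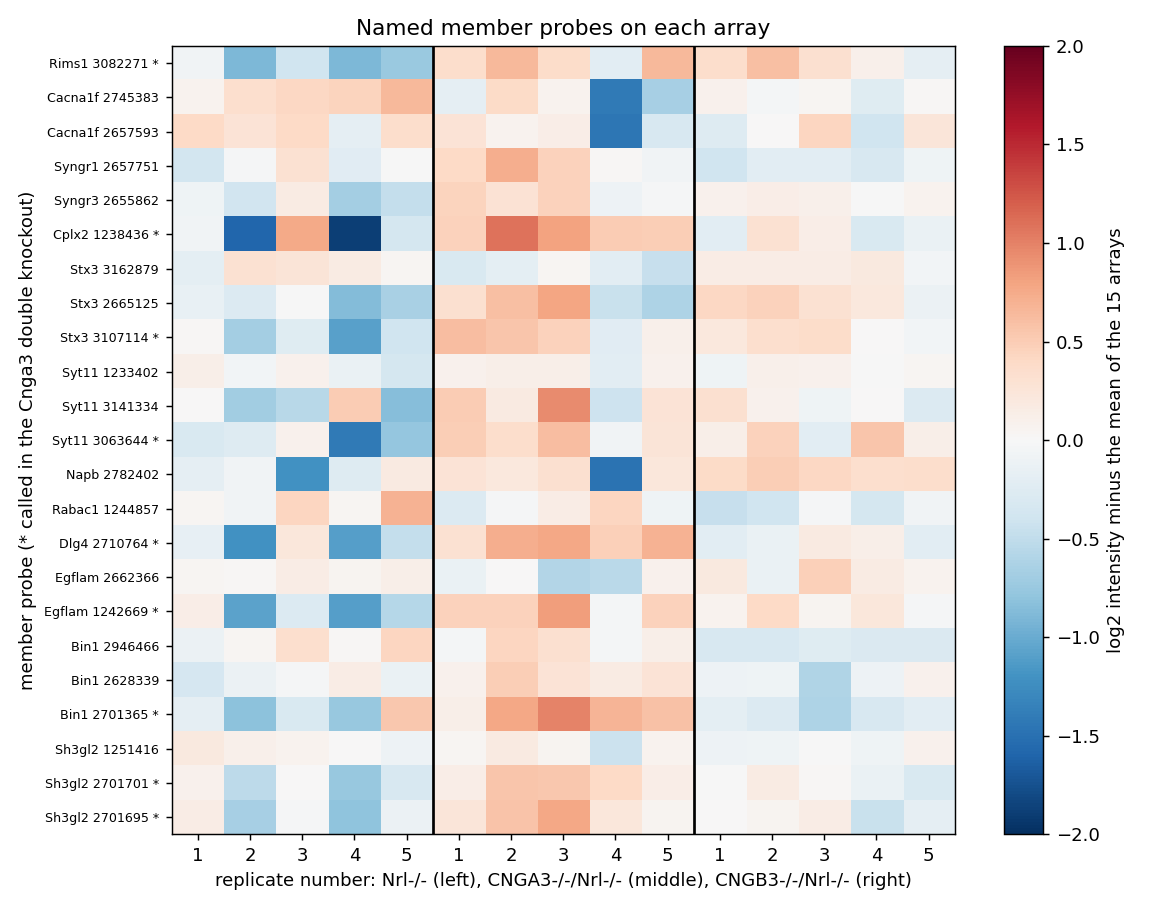
Normalized log2 intensity minus the mean of the 15 arrays (colour, red above and blue below the mean) for the 23 named member probes (rows, called probes starred) on each array (columns, replicates 1 to 5 of the Nrl-/-, CNGA3-/-/Nrl-/- and CNGB3-/-/Nrl-/- groups from left to right). Control replicates 2 and 4 are blue on most starred rows, and replicate 4 of the Cnga3 double knockout is paler or bluer than the rest of its group on 4 of them.

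Other synapse genes that are not members were read from a list of 127 names, of which 81 had a kept probe (118 probes). In the Cnga3 double knockout 11 of these probes were higher and 3 lower, from 9 and 3 genes, or 11.9% beside 8.04% of all probes, with a median log2 fold change of 0.10. The Cngb3 double knockout had 3 higher and 2 lower, or 4.24% beside 2.68%, with a median of -0.02. Rab5a, a GTPase of early endosomes, rose in both, by 0.91 (adjusted p = 0.00207) and 0.59 (adjusted p = 0.036). The first call held without any 1 array, while the second ended in 10 of 15 such fits (adjusted p of up to 0.0927), with median centring (0.0971), with only the 2 groups compared (0.0678) and with the replicate number as a block (0.0586). Its second probe had 0.73 (adjusted p = 0.0253) and 0.53 (0.128). Snap91, the clathrin adaptor AP180, rose on both probes in the Cnga3 double knockout, by 0.68 (adjusted p = 0.0157) and 0.79 (adjusted p = 0.0327). Atp6v0d1, a subunit of the proton pump that energises vesicle filling, rose by 0.80 on 1 of its 4 probes (adjusted p = 0.00248), while the other 3 had -0.02 to 0.36 and did not pass.

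Rab3d, a GTPase of secretory granules, fell by 0.51 in the Cnga3 double knockout (adjusted p = 0.0255). Rab3c, a vesicle GTPase, was detected on 0 of 5 controls and 5 of 5 Cnga3 double knockout arrays and was at least 1.15-fold higher there (adjusted p = 0.0266). It was kept through that group. The call was lost in 4 of the 15 fits with 1 array left out, in the authors' processed values (adjusted p = 0.0784) and with only the 2 groups compared (0.0763). Lin7b, a relative of Lin7c, fell by 0.69 with 1 of its 4 probes in the Cnga3 double knockout (adjusted p = 0.0255) and by 0.83 with another in the Cngb3 double knockout (adjusted p = 0.013). In the authors' processed values the latter fell by 0.27, and Rab3d fell by 0.32. Of the enzymes that start the sugar chain of dystroglycan, Pomt2 fell by 0.57 and 0.66 (adjusted p = 0.0163 and 0.015). A Pomt1 probe was detected on 0 controls, 4 Cnga3 and 2 Cngb3 double knockout arrays, with measured means of 4.74 ± 0.13, 5.34 ± 0.24 and 5.36 ± 0.18. It is among the higher calls counted above in both comparisons, but it was kept only through the double knockouts, and the calls ended in the authors' processed values (adjusted p = 0.0758 and 0.105). With each array centred on its median the calls of Rab3d, Lin7b and Pomt2 in the Cnga3 double knockout ended (adjusted p = 0.124, 0.0587 and 0.0842), under a scaling that raised the median of all probes by 0.12. The 2 comparisons share the control arrays.

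Cabp4, which binds the photoreceptor calcium channel and shifts its opening, was called between the double knockouts. Its probe ILMN_2713354 read 8.63, 8.91, 9.45, 8.62 and 9.44 in the controls, 9.54, 9.71, 9.64, 9.60 and 9.46 in the Cnga3 double knockout and 8.56, 8.73, 8.75, 8.38 and 8.87 in the Cngb3 double knockout. Every Cnga3 double knockout array lay above every array of the other groups, though the nearest control read 9.45 against 9.46. In the Cnga3 double knockout its log2 fold change was 0.58 (SE 0.17, adjusted p = 0.0455), against -0.35 (adjusted p = 0.256) in the Cngb3 double knockout, and the difference was 0.93 (SE 0.17, adjusted p = 0.0245). This call ended without replicate 2 or 3 of the Cnga3 double knockout or Cngb3 double knockout replicate 1, 2, 3 or 4 (adjusted p of up to 0.0799), and the call against the control ended in 13 of 15 fits without 1 array. The other Cabp4 probe gave a difference of 0.68 (adjusted p = 0.0926). Nrxn3, a presynaptic adhesion protein, rose by 0.52 and 0.57 on 1 of its 2 kept probes (adjusted p = 0.0365 and 0.0442), and those calls ended in 7 and 12 of 15 fits without 1 array.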

How the data were processed

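Retinal RNA of 15 mice was measured on Illumina beadchips. The authors' deposited table of non-normalized values holds 1 linear intensity per probe and array, and per the file headers a detection p-value beside it, whose smallest step is 1 in 798. A second deposited table, processed by the authors, is on a log2 scale, and was checked to equal the log2 of quantile-normalized intensities, with a median of 7.255 on every array. The submitters' processing notes name GenomeStudio; no source used here gives its version or settings. No slide or scan batch is given.

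Intensities were background-corrected, quantile-normalized and turned into log2 values with neqc (offset 16, negative controls inferred from the detection p-values) in limma 3.58.1 under R 4.3.3. Of 25697 probes, 13077 passed the filter (5 or more arrays with a detection p under 0.01). All 3 groups entered 1 linear model (12 residual and 4.73 prior degrees of freedom). Two-sided moderated tests were adjusted by Benjamini and Hochberg over all kept probes and called under 0.05. Sample labels gave the groups and replicates and name 5 mice per group. The number of arrays limits the precision of every value. Gene symbols came from the platform annotation, with 1 symbol for 23978 probes and none for 1719, and promoter sequences from RefSeq.

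For a probe undetected throughout a group, a fold is given as at least the ratio of the other group's mean to the detection limit. Every kept member probe is accounted for. Array values are given for called probes, for other kept probes of their genes, and for the 2 probes with the lowest p in role groups without a call. Other synapse genes were named by lowest p, up to 8 per comparison. Members, lists and these rules were chosen with earlier results of these data known. The fit was tested on simulated data. Alternatives were median centring, the authors' table, an offset of 50, other filters on dim probes, only the groups compared, the replicate number as a block, robust and trended variances, and leaving out arrays.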

Additional observations from a re-analysis of the deposited data

Results flagged for a closer look

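Of 102 groups of 5 values tested (34 named probes in 3 groups), 8 held 1 array far from the other 4, where chance gives about 1 in 20. Replicate 4 of the Cnga3 double knockout was such an array for 3 probes. It read 9.71 for Napb (the others 11.40 to 11.50), 12.58 for Syt11 ILMN_1233402 (12.89 to 12.92) and 12.84 for Sh3gl2 ILMN_1251416 (13.31 to 13.45). In the controls, replicate 4 read 6.78 for Cacna1f ILMN_2657593, below 7.22 to 7.35. In the Cngb3 double knockout, Stx3 ILMN_3162879 read 6.93 on replicate 5 (7.13 to 7.19), Bin1 ILMN_2628339 read 5.85 on replicate 3 (6.35 to 6.53), Atp6v0d1 ILMN_2608429 read 10.25 on replicate 4 (10.42 to 10.48) and Nrxn3 ILMN_2763404 read 9.79 on replicate 2 (9.91 to 9.95).

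The 2 double knockouts differed in Cabp4, by 0.931 on the log2 scale (SE 0.17, limma adjusted p = 0.0245, n = 5 and 5), with all 5 arrays of the Cnga3 double knockout above all 5 of the Cngb3 double knockout.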

How the results depend on the processing

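No called member value changed direction under any alternative run, while some values near 0 that were not called did, among them those of Napb and of probes of Stx3, Bin1, Sh3gl2, Syt11 and Cacna1f. The 9 calls in the Cnga3 double knockout became 10 with median centring, 11 with the authors' processed table, 10 with an offset of 50, 7 with no filter on dim probes, 9 with probes detected on all 15 arrays, 3 with only the 2 groups compared and 11 with robust and trended variances. Without 1 array they ran from 4 (without control replicate 2, or replicate 3 of the Cnga3 double knockout) to 12, and without Cnga3 double knockout replicate 2 there were 5. The single call in the Cngb3 double knockout became 2 with the authors' table and with robust and trended variances, 0 with no filter and with only the 2 groups compared, and 10 without control replicates 1 and 3 together. Without 1 array it ran from 0 to 5 (the highest without control replicate 1). Between the double knockouts the 0 calls became 2 with median centring and 1 with only the 2 groups compared, and 0 to 1 without 1 array. Of probe pairs, 7 differed, and 4 to 7 without 1 array. That test was not run with only the 2 groups compared.

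The correlations do not settle whether the replicate numbers pair the arrays. Same-numbered arrays correlated at -0.02 to 0.249 in the first comparison, over 0.1 in 2 of 5 pairs, and in 1 of 5 in each other comparison. The arrays numbered 4 correlated at 0.214, 0.28 and 0.14. In each comparison the double knockout array numbered 4 (the Cnga3 one in the last) matched number 4 of the other group best. The same held for the arrays numbered 3 in the first comparison (0.249). The match in the reverse direction was not computed. With the replicate number as a block the calls were 11, 2 and 0, and 6 probe pairs differed, and over all probes 122 differed between the double knockouts in place of 53.

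Median centring raised the median of all probes by 0.12 in the Cnga3 double knockout and moved the share of higher calls from 57.4% to 83.4% there, and from 45.3% to 85.1% between the double knockouts (shift 0.10). Calls over all probes in the Cnga3 double knockout were 1051, and 323 with only the 2 groups compared, 552 without control replicate 2, 551 and 616 without Cnga3 double knockout replicates 5 and 2. In the Cngb3 double knockout 351 became 230 with only the 2 groups compared, 849 without control replicates 1 and 3, and 130 to 828 without 1 array, and between the double knockouts 53 became 201 with median centring, 94 without those controls and 19 to 180 without 1 array. The causes were not tested. Probes near background, such as those of Egflam and Pclo, have less certain fold changes.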
